A study of Arabidopsis thaliana with 12 samples.

Results

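SAUR (SMALL AUXIN UP RNA) genes were examined in leaves of Arabidopsis thaliana after 1 h in air of different humidity. Members were the genes of the deposited table whose gene name begins with SAUR or whose description holds SAUR or small auxin up. This rule found 79 of 32833 genes, 14 by name and description, 63 by description alone and 2 by name alone. One of the latter, AT5G01830, carries a SAUR name in the table but is described as an ARM repeat protein, so it is called here by its locus code. Plants of the wild-type accession Col-0 were raised in soil at 60% relative humidity and 22 °C with 12 h of light. At 3.5 to 4 weeks of age they were moved for 1 h to a chamber at 40 to 45% (low), 55 to 60% (moderate) or 95% (high) relative humidity, at the same temperature and day length. Each condition has 4 libraries of leaf RNA that the labels call biological replicates. The labels do not say if a replicate stands for a single plant, and if replicates shared a chamber run. P-values therefore measure the spread between these samples. A chamber cannot be told apart from its humidity.

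SAUR transcripts were first found as RNAs that accumulate within minutes of auxin treatment, and their family is the largest of the early auxin response genes in plants. Several SAUR proteins bind and inhibit phosphatases of the PP2C.D group. This keeps plasma membrane proton pumps phosphorylated and active, so that protons acidify the wall and the cell can expand. Other members respond mainly to light, brassinosteroid, abscisic acid, temperature or leaf age, and some act in senescence and not in growth.

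The members shared a compact gene structure that the rule did not use. In the TAIR10.1 reference annotation 73 of the 79 members (92.4%) had a single exon, against 20.2% of 27444 protein-coding genes, and the median coding length was 366 bases against 1047 bases. Within the 250 bases before the annotated gene start, the hexamer CATGTG, an E-box variant to which PIF transcription factors can bind, was present on either strand in 31 of 79 members (39.2%), against 11.1% of 27443 windows of the same length. Of these 31 members 24 are among the 33 in tandem groups of neighbouring copies (72.7%), and 7 among the other 46 (15.2%). The auxin response elements TGTCTC and TGTCGG were found in 8.86% and 2.53% of the members' windows, against 10.9% and 4.16% of all windows. The G-box CACGTG was found in 1.27% against 6.49%, CGTGTG in 3.8% against 5.37%, and CGTGCG in 2.53% against 1.57%. Both strands were searched and each motif was counted on its own, once per window; CACGTG and CGTGTG can share bases. A match is a description of the letters and no evidence of binding.

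Windows of 4 members are shown because these genes changed in opposite directions at high humidity, as described further on. They were read from TAIR10.1 on the strand of the gene, 5′ to 3′, and end at the base before the annotated start. Capitals mark CATGTG, which appears here as its reverse complement. The 2 members that rose, SAUR78 (chr1:27265807-27266056, minus strand) and SAUR72 (chr3:4079628-4079877, minus strand), hold none of the 6 motifs. The 2 that fell, SAUR51 (chr1:28377127-28377376, plus strand) and SAUR6 (chr2:9086030-9086279, minus strand), hold 1 and 2 matches of CATGTG. These 4 windows do not stand for their groups. SAUR34, SAUR33 and SAUR32, which fell too, hold no CATGTG and the risen SAUR1 holds it. In all it was present before 1 of the 6 risen members, 9 of the 19 fallen members and 9 of the 18 tested members that did not pass.
SAUR78: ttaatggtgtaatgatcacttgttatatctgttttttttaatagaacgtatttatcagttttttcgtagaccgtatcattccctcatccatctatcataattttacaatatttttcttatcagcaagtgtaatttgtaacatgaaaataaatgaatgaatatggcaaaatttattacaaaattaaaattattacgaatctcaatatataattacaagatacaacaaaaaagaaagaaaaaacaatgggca
SAUR72: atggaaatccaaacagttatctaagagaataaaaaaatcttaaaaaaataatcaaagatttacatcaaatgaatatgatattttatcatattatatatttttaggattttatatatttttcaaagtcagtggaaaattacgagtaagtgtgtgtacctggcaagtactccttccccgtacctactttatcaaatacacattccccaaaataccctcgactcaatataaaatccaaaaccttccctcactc
SAUR51: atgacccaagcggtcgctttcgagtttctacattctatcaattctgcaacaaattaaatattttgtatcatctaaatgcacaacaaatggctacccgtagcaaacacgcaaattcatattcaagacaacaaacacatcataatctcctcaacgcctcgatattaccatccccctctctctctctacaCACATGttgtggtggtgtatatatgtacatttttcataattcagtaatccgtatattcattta
SAUR6: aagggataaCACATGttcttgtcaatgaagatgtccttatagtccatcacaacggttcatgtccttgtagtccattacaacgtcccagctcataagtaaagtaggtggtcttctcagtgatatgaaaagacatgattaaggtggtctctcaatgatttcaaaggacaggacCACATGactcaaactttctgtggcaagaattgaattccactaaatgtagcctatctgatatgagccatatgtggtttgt

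Several members are close copies of each other, which can limit how well reads are assigned to them where long stretches are the same. The coding sequences of the SAUR19 to SAUR24 genes, which include the founding inhibitors of PP2C.D phosphatases, were 87.7 to 95.2% identical over 15 pairs. The first 120 coding bases of SAUR19 and SAUR24, both on chromosome 5, are shown for the closest of these pairs (95.2% over 273 coding bases). They differ at 1 base, in capitals, and so are closer than the whole coding sequences.
SAUR19: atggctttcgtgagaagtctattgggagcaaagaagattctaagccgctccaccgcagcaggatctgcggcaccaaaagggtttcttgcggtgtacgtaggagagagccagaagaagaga
SAUR24: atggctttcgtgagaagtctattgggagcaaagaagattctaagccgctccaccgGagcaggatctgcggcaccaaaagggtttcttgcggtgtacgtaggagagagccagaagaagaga
SAUR62 and SAUR75 were 97.0% identical, and the SAUR61 to SAUR68 genes were 46.6 to 89.5% identical over 28 pairs. Of the 100-base windows of the SAUR63 transcript 18.9% occur unchanged in another gene, SAUR68, and 13.2% of those of SAUR68 in SAUR63. SAUR62 and SAUR75 share 8.57% and 11.6% of their windows with each other. SAUR31 shares 32.5% of its windows with the locus AT4G00883, and SAUR6 and SAUR7 share 5.91% and 9.64% of theirs with each other. Values of these genes are uncertain to that extent, since the sources used here do not tell how shared reads and strand were treated. SAUR78, SAUR32 and the genes SAUR19 to SAUR24 share no such window with another gene.

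Values are TPM, a measure of transcript share that is scaled for gene length, so that levels of different genes can be compared. They sum to nearly the same total in each library (998920 to 999399), and the number of reads behind a value is unknown. The 4 high humidity libraries separated from the others on the leading principal component (48.06% of the variance). Low replicate 1 stood apart within its condition. Its median-of-ratios scaling factor, the TPM of its typical gene relative to the mean library, was 1.11. This lies within the range of the moderate libraries (1.06 to 1.17), while the other low libraries were at 0.911 to 0.927 and the high libraries at 0.931 to 0.947. Results that rest on low replicate 1 are therefore given with and without it.

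In these leaves a few SAUR genes carried most of the family's transcripts. Of the 79 members, 11 were listed at 0 in every library and 25 others did not reach a TPM of 1 in 4 libraries, with 1.55 TPM (SAUR35) as their highest value. The other 43 members were tested. Of these, SAUR1 and SAUR56 passed this minimum only through the high libraries, and SAUR10 and SAUR19 needed both the low and the moderate libraries. Over all 12 libraries 20 members had a mean TPM of at least 10, and 6 of at least 50. The last were SAUR78 (235 TPM), SAUR14 (186), SAUR16 (99.6), SAUR6 (92.4), SAUR31 (79.6) and SAUR62 (68.4), which together made up 62.7% of SAUR TPM at moderate humidity. SAUR78 encodes a protein reported to interact with ethylene receptors, while SAUR6, SAUR14 and SAUR16 are known as genes that light induces in cotyledons.

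The summed TPM of all members was 1059, 796, 853 and 857 in low replicates 1 to 4, 1092, 1153, 1273 and 1538 in the moderate libraries, and 1199, 1368, 1419 and 1218 in the high libraries. The low sums lay below all others, and the moderate and high sums overlapped. All sums given here and below are of TPM as deposited, and scaled sums were not computed. Scaling factors were 1.06 to 1.17 for the moderate and 0.931 to 0.947 for the high libraries. Scaling would therefore lower the moderate sums relative to the high ones. Without SAUR78 the sum was 788 ± 112 at low, 1120 ± 200 at moderate and 844 ± 68.1 at high humidity (SD, n = 4). SAUR78 alone went from 11.5% of the family's TPM at moderate to 35.2% at high humidity. Moderate replicate 4 had the highest value of its condition for 27 of the 43 tested members, while it was the highest for 27.4% of all tested genes. Low replicate 1 had the highest value for 23 of the 43, against 62.9% of all tested genes.

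**Figure D1:**
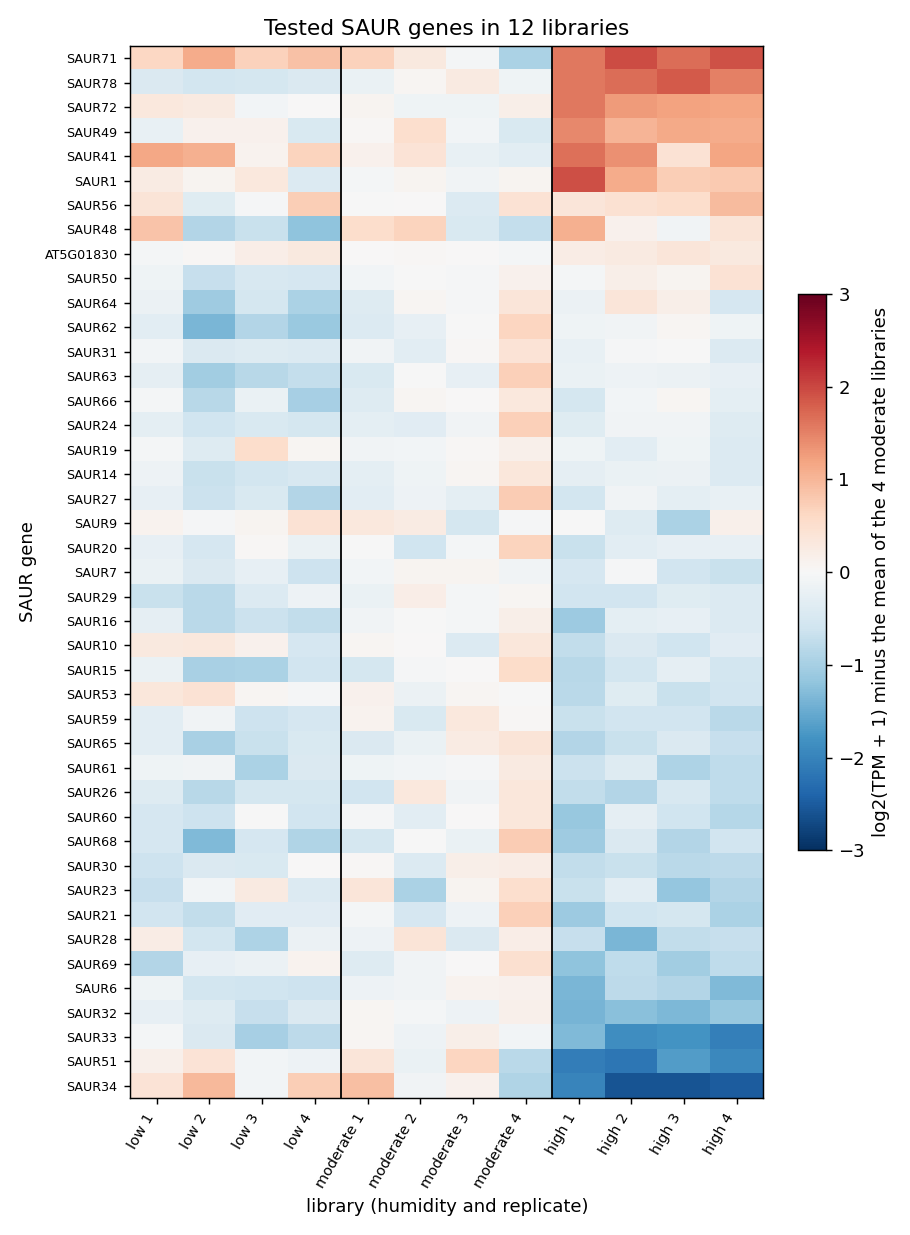
Each row is 1 of the 43 tested SAUR genes and each column 1 of the 12 libraries, and colour gives log2(TPM + 1) minus the mean of the 4 moderate libraries (red higher, blue lower). A block of 6 genes at the top was higher in the high humidity libraries, SAUR34, SAUR51, SAUR33 and SAUR32 at the bottom were lower there, and moderate replicate 4 was the highest library of its condition for 27 genes.

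High against moderate humidity asks how 1 h of nearly saturated air changed the family relative to air near the growth setting. Of the 43 tested members 6 rose and 19 fell at a limma adjusted p of 0.05 over 17368 genes, and 18 did not pass. SAUR71, SAUR78, SAUR72, SAUR49, SAUR41 and SAUR1 rose, and the largest falls were those of SAUR34, SAUR51, SAUR33, SAUR32 and SAUR6. Of the risen members SAUR1 passed the minimum only through the high libraries, so the minimum favoured its rise. Of all tested genes 45.6% were called, 11.4% as higher and 34.2% as lower, so the members' 14.0% higher and 44.2% lower are to be read against a large response of the whole transcriptome. At least 2-fold changes were called in 11 of the 43 members and in 7.74% of all tested genes. The median log2 fold change was -0.45 over the members and -0.22 over all genes.

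TPM has a fixed total, so a change in abundant transcripts moves all other values. Median-of-ratios scaling, which sets the typical gene equal across libraries, moved the median of all genes by 0.21 on the log2 scale to -0.02, and the members' median to -0.27. After it 9 members were higher and 11 lower. Of all tested genes 33.5% were called, 18.5% as higher and 15.0% as lower. All 6 risen members kept their call, and SAUR56, AT5G01830 and SAUR50 were added. Among these 9, SAUR1 and SAUR56 passed the minimum only through the high libraries, so the minimum favoured their rise. AT5G01830 is the gene described as an ARM repeat protein. Of the 19 fallen members 11 kept their call under both scalings. SAUR60, SAUR65, SAUR68, SAUR7, SAUR29, SAUR59, SAUR16 and SAUR21 were lower only in the values as deposited, so their falls did not exceed that of the typical gene by a margin that passed the test.

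**Figure D2:**
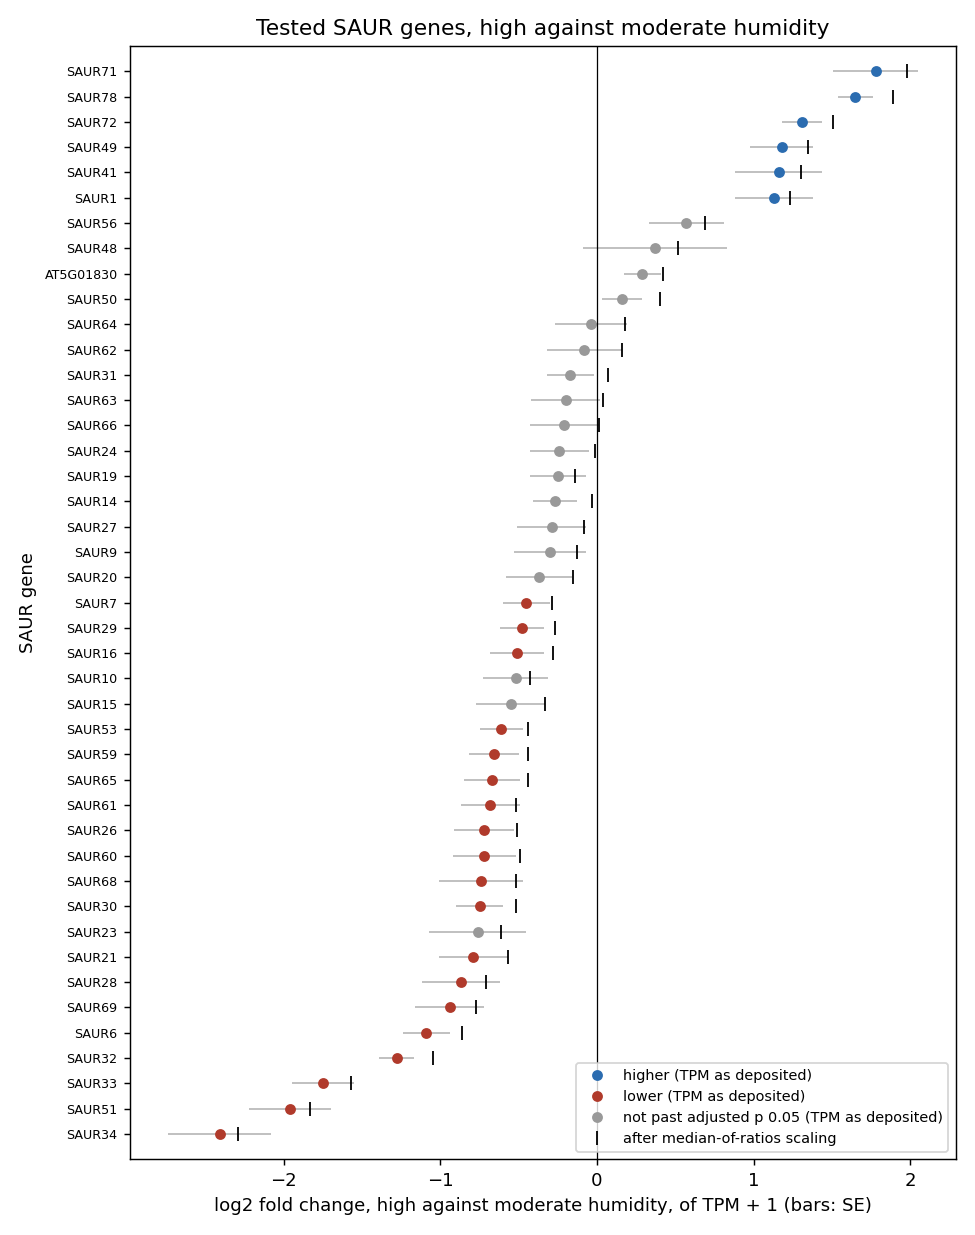
Points are log2 fold changes of TPM + 1 at high against moderate humidity with their SE for the 43 tested SAUR genes (blue rose, red fell, grey did not pass), and black ticks are the fold changes after median-of-ratios scaling. The ticks lie to the right of the points throughout, and SAUR62, SAUR63, SAUR64, SAUR66 and SAUR31, none of them called, change sign between both scalings.

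SAUR78 (AT1G72430) had the highest level of the family at high humidity. It stood at 125, 151, 175 and 131 TPM in the moderate libraries, at 430, 465, 519 and 415 TPM in the high libraries and at 107, 97.8, 99.7 and 107 TPM in the low ones. Every high library was above every other library, and every low library was below every moderate one. The log2 fold change of SAUR78 at high against moderate humidity was 1.65 (SE 0.11, limma adjusted p = 1.8e-07). At low against moderate humidity SAUR78 did not pass (limma adjusted p = 0.056, and 0.275 after scaling). The relatives SAUR76 and SAUR77, which have also been linked to ethylene receptors, were not tested. SAUR76 had 0 to 0.44 TPM in the moderate and 0.1 to 1.38 TPM in the high libraries, and SAUR77 did not exceed 0.06 TPM in any library.

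SAUR41, SAUR71 and SAUR72 form with SAUR40 a subfamily that promotes cell expansion when overexpressed in seedlings, a grouping made here after the values were seen. SAUR71 (AT1G56150) was at 7.11, 5.16, 3.84 and 1.61 TPM in the moderate and at 14.0, 18.5, 15.1 and 17.8 TPM in the high libraries, with 6.7 to 9.82 TPM in the low ones. SAUR72 (AT3G12830) was at 4.73, 4.01, 4.01 and 5.16 TPM in the moderate and at 15.3, 12.2, 11.5 and 11.4 TPM in the high libraries, with 4.18 to 5.79 TPM at low humidity. SAUR41 (AT1G16510) was at 1.22, 1.68, 0.73 and 0.62 TPM in the moderate and at 5.37, 4.25, 1.71 and 3.57 TPM in the high libraries, with 1.19 to 3.5 TPM at low humidity. For all 3 genes the high libraries lay above the moderate ones without overlap, for SAUR41 by a narrow margin, and SAUR41 overlapped between high and low humidity. The log2 fold changes at high against moderate humidity were 1.78 (SE 0.27, limma adjusted p = 3.4e-04) for SAUR71, 1.31 (SE 0.13, adjusted p = 7.2e-06) for SAUR72 and 1.16 (SE 0.28, adjusted p = 5.8e-03) for SAUR41. SAUR40 was listed at 0 in every library. Coding sequences of these 4 genes were 55.7 to 66.2% identical, below the range of the SAUR19 to SAUR24 genes.

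SAUR49 and SAUR1 also rose, and both lie in the run of 7 members from AT4G34750 to AT4G34810. SAUR49 (AT4G34750), which promotes leaf senescence by inhibiting a PP2C.D phosphatase, was at 1.99, 3.19, 1.8 and 1.13 TPM in the moderate and at 7.02, 4.94, 5.46 and 5.33 TPM in the high libraries. SAUR1 (AT4G34770) was at 0.27, 0.42, 0.24 and 0.41 TPM in the moderate and at 4.06, 1.87, 1.21 and 1.28 TPM in the high libraries. Neither gene overlapped between these conditions, and the low libraries, at 1.15 to 2.24 TPM for SAUR49 and 0 to 0.67 TPM for SAUR1, lay below every high one. Their log2 fold changes were 1.18 (SE 0.20, limma adjusted p = 5.5e-04) and 1.13 (SE 0.25, adjusted p = 2.9e-03). SAUR1 had to be high at high humidity to be tested at all, and without high replicate 1 it no longer reached the minimum and had no test.

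**Figure D3:**
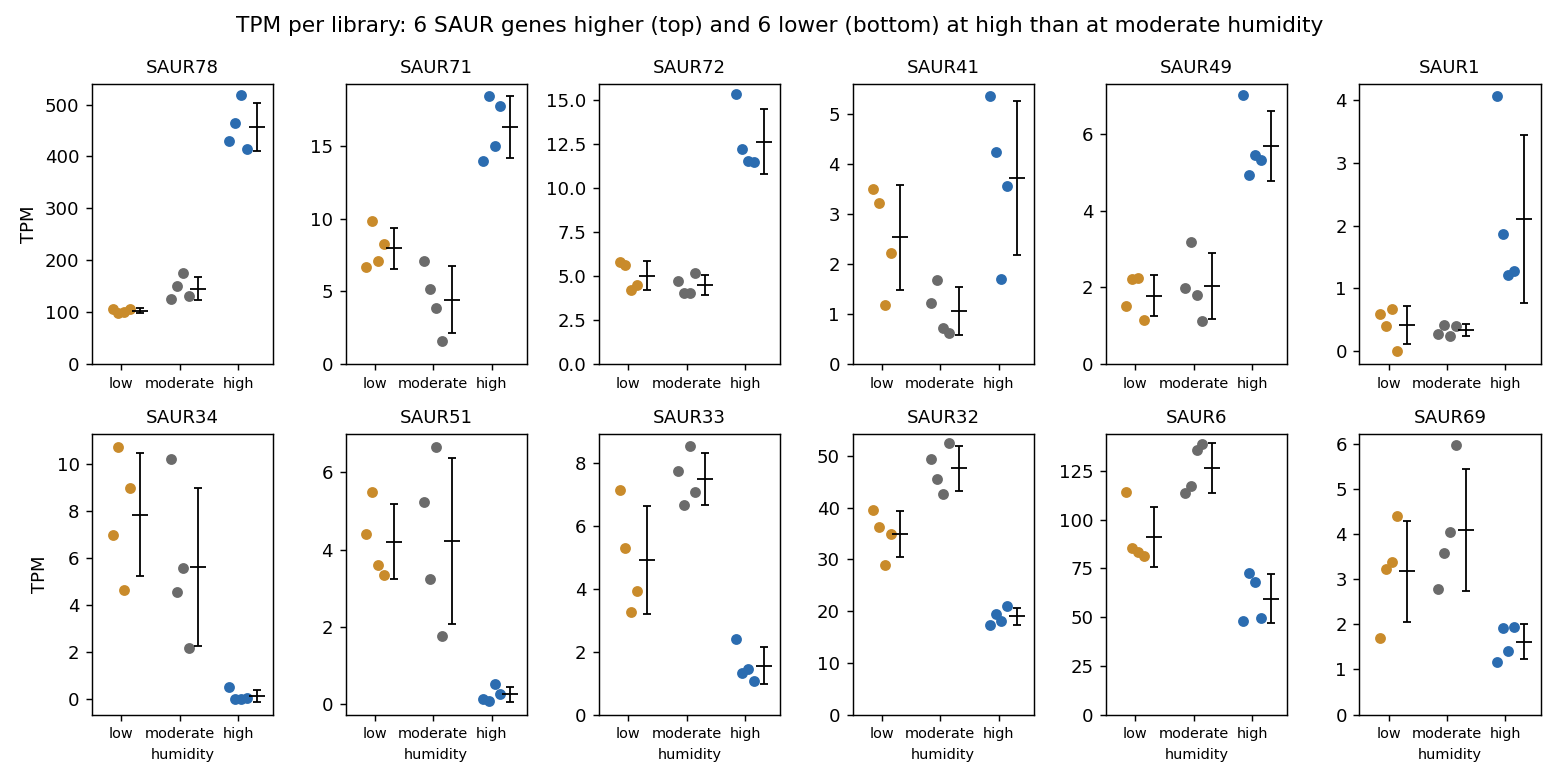
TPM in each of the 4 libraries per condition (points) with mean and SD (black) for the 6 SAUR genes that rose and the 6 with the largest falls at high against moderate humidity, each panel on its own linear axis. SAUR78 reached 415 to 519 TPM in the high libraries, and SAUR34 was at 0 to 0.53 TPM there.

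The largest falls were found in genes of different level. SAUR34 (AT4G22620) was at 10.2, 4.55, 5.57 and 2.19 TPM in the moderate libraries, at 6.98, 10.7, 4.65 and 8.98 TPM in the low ones and at 0.53, 0, 0 and 0.06 TPM in the high ones. SAUR51 (AT1G75580) was at 5.23, 3.23, 6.65 and 1.77 TPM in the moderate, at 4.39, 5.49, 3.61 and 3.34 TPM in the low and at 0.15, 0.08, 0.52 and 0.28 TPM in the high libraries. Both genes were near 0 in all high libraries and overlapped between moderate and low humidity. The log2 fold changes at high against moderate humidity were -2.41 (SE 0.33, limma adjusted p = 1.7e-04) for SAUR34 and -1.96 (SE 0.26, adjusted p = 1.0e-04) for SAUR51, on a scale that understates changes of low values.

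SAUR32 and SAUR33 fell as well. SAUR32 (AT2G46690), which has been linked to the apical hook of seedlings, was at 49.5, 45.6, 42.7 and 52.4 TPM in the moderate, at 39.5, 36.2, 29.0 and 34.9 TPM in the low and at 17.4, 19.4, 18.1 and 21.0 TPM in the high libraries. The 3 conditions did not overlap as deposited, with moderate highest and high lowest. The log2 fold change of SAUR32 at high against moderate humidity was -1.28 (SE 0.11, limma adjusted p = 1.5e-06). At low against moderate humidity SAUR32 did not pass (-0.44, limma adjusted p = 0.064, and -0.25, 0.261 after scaling). SAUR33 (AT3G61900) was at 7.75, 6.65, 8.53 and 7.06 TPM in the moderate and at 2.4, 1.32, 1.44 and 1.06 TPM in the high libraries, with 3.25 to 7.14 TPM at low humidity. The high libraries were below all others, and the log2 fold change was -1.75 (SE 0.20, limma adjusted p = 2.3e-05). In coding sequence SAUR31 and SAUR33 were equally close to SAUR32 (69.4% identity each). Unlike SAUR33, SAUR31 did not pass the test (adjusted p = 0.358), with 89.8 ± 20.6 TPM at moderate and 78.7 ± 9.53 TPM at high humidity.

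Among the genes known to be induced by light in cotyledons, SAUR6 fell most. SAUR6 (AT2G21210) was at 114, 117, 136 and 139 TPM in the moderate, at 114, 85.3, 83.2 and 81.5 TPM in the low and at 48.0, 72.7, 68.0 and 49.6 TPM in the high libraries. All high libraries were below all others, and the log2 fold change was -1.09 (SE 0.15, limma adjusted p = 1.1e-04). SAUR16 (AT4G38860) went from 126 ± 10.3 to 90.1 ± 21.6 TPM, a log2 fold change of -0.51 (SE 0.17, adjusted p = 0.027). This call was lost after scaling (adjusted p = 0.198), with the replicate number as a block (0.051), without moderate replicate 4 (0.070) and without high replicate 1 (0.061). SAUR14 had 220 ± 42.5 and 180 ± 13.1 TPM and did not pass (adjusted p = 0.129), except without moderate replicate 1 (0.049). SAUR50 had 41.4 ± 2.56 and 46.8 ± 6.87 TPM, did not pass as deposited (adjusted p = 0.301) and was called higher after scaling (log2 fold change 0.40, adjusted p = 0.010). The fifth gene of this kind, SAUR12, was not tested, with at most 1.03 TPM.

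The other 14 fallen members had log2 fold changes between -0.94 (SAUR69) and -0.45 (SAUR7). SAUR69, SAUR28, SAUR30, SAUR26, SAUR61 and SAUR53 fell under both scalings, SAUR69 from 4.10 ± 1.35 to 1.61 ± 0.390 TPM and SAUR30 from 23.4 ± 4.50 to 13.3 ± 0.678 TPM. SAUR26 and SAUR28 belong to a group of growth genes that respond to temperature. The calls of SAUR68 and SAUR7 did not hold when single libraries were left out. That of SAUR68 was lost without low replicate 4, without moderate replicate 2, 3 or 4 and without high replicate 1, 3 or 4 (adjusted p 0.050 to 0.108). It was also lost without the minimum (0.056) and with the replicate number as a block (0.058). That of SAUR7 was lost without moderate replicate 2 or 3 and without high replicate 1, 3 or 4 (0.072 to 0.090). The high and moderate libraries did not overlap in 7 members that were higher and 16 that were lower at high humidity, beside 10.9% and 34.9% of all tested genes.

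Tandem groups, defined as at least 3 members whose locus codes follow each other within 100 units, hold 33 of the 79 members, and their sum varied more among the moderate libraries (SD 179 TPM) than that of the other members (SD 29.6 TPM). The 8 genes SAUR61 to SAUR68 (AT1G29420 to AT1G29510, one of them only under its locus code), which include the organ elongation gene SAUR63, summed to 155, 197, 202 and 326 TPM in the moderate, 167, 190, 194 and 170 TPM in the high and 172, 92.5, 125 and 112 TPM in the low libraries. Moderate replicate 4 was far above the others, and the moderate and high sums overlapped. SAUR61, SAUR65 and SAUR68 fell at high humidity as deposited, and SAUR61 alone after scaling. SAUR62, SAUR63, SAUR64 and SAUR66 did not pass, with fold changes that were negative as deposited and between 0.01 and 0.18 after scaling.

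The 6 genes SAUR19 to SAUR24 (AT5G18010 to AT5G18080) summed to 75.7, 56.2, 75.7 and 132 TPM in the moderate, 50.4, 65.1, 65.4 and 57.3 TPM in the high and 62.8, 53.0, 71.8 and 63.0 TPM in the low libraries. Here too moderate replicate 4 was highest, and all 3 conditions overlapped. Of the 5 tested genes only SAUR21 fell as deposited (log2 fold change -0.79, SE 0.22, limma adjusted p = 0.012), and none did after scaling. SAUR20 passed only without moderate replicate 2 (0.026), and SAUR23 only without moderate replicate 2 (0.0043) or high replicate 2 (0.044). SAUR19 and SAUR24 passed in none of the fits.

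The group of SAUR13 to SAUR16 (AT4G38825 to AT4G38860), which holds the founding Arabidopsis member SAUR15, summed to 365 ± 58.1 TPM at moderate, 283 ± 29.3 TPM at high humidity and 252 ± 43.7 TPM at low humidity. SAUR15 itself had 19.0 ± 6.05 TPM at moderate and 12.3 ± 2.08 TPM at high humidity and passed only without low replicate 1 (adjusted p = 0.038) or moderate replicate 1 (0.015). SAUR26 to SAUR29 with SAUR73 (AT3G03820 to AT3G03850) summed to 29.8 ± 7.31, 18.7 ± 1.55 and 19.4 ± 2.81 TPM in the same order. SAUR26, SAUR28 and SAUR29 of this group fell as deposited, and SAUR26 and SAUR28 also after scaling. The run from AT4G34750 to AT4G34810, which holds SAUR49, SAUR50 and SAUR1 to SAUR5, summed to 44.6 ± 2.34, 55.7 ± 5.41 and 32.8 ± 5.78 TPM, and no high library was below a moderate one. Over all tandem groups the sum was 874 ± 179 TPM at moderate and 659 ± 61.5 TPM at high humidity. The 46 members outside them had 390 ± 29.6 and 642 ± 51.8 TPM, of which SAUR78 had the largest part. These group sums are as deposited, and scaling would lower the moderate ones relative to the high ones.

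**Figure D4:**
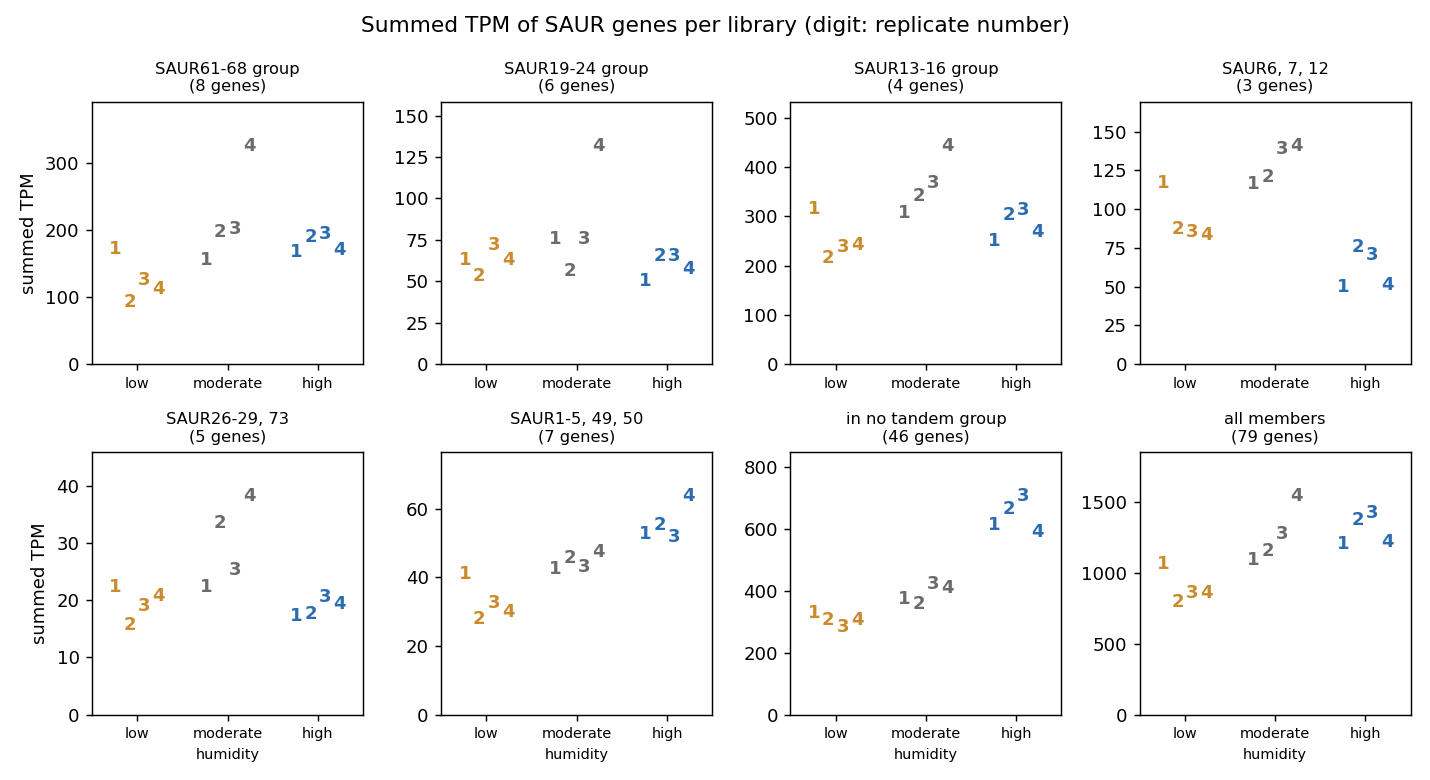
Summed TPM per library, as deposited, for 6 tandem groups of SAUR genes, for the 46 members outside such groups and for all 79 members. The replicate number is the plotting symbol and each axis starts at 0. Moderate replicate 4 was highest in its condition in the SAUR61 to SAUR68 group (326 TPM) and the SAUR19 to SAUR24 group (132 TPM), and low replicate 1 was highest among the low libraries for all members together (1059 TPM).

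The members below the minimum were few in transcripts but not all alike. When every gene above 0 in some library was tested, 68 members entered and 9 rose and 19 fell at high against moderate humidity, beside 8.54% and 24.1% of 23705 genes. SAUR36 (AT2G45210), a gene of leaf senescence, was then among the risen ones. It had 0.27, 0.62, 0.3 and 0.41 TPM in the moderate, 0.91, 0.76, 0.8 and 0.96 TPM in the high and 0.36, 0.16, 0 and 0 TPM in the low libraries, without overlap between high and the others. SAUR3 (AT4G34790) was the other addition with a SAUR description, at 0 to 0.37 TPM in the moderate and 0.51 to 0.94 TPM in the high libraries. Both were named here after their values had been seen.

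Low against moderate humidity asks how drier air changed the family. None of the 43 tested members passed limma's adjusted p of 0.05, beside 0.674% of all tested genes, and the smallest adjusted p was 0.056 (SAUR78). At an unadjusted p of 0.05, 26 members passed, 24 of them lower at low humidity, beside 29.2% of all genes, with 26.2% lower. The median log2 fold change was -0.40 over the members and -0.18 over all genes. After scaling these were -0.25 and -0.01, and again no member passed, beside 0.737% of all tested genes.

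The result depended on low replicate 1. Without it 16 members (37.2%) were lower and 1 (2.33%) was higher at low than at moderate humidity, beside 30.3% and 2.27% of all tested genes. The median log2 fold change was then -0.45 over the members and -0.24 over all genes, in values as deposited. A scaled fit without low replicate 1 was not run. The lower ones included SAUR62, SAUR63, SAUR64, SAUR65, SAUR66 and SAUR68 of the chromosome 1 group, and SAUR14, SAUR15, SAUR16, SAUR6, SAUR50, SAUR32, SAUR33 and SAUR78, while SAUR71 was the higher one. SAUR62 (AT1G29430) had 64.8 TPM in low replicate 1 and 30.9, 43.6 and 36.7 TPM in the other low libraries, against 60.8, 68.2, 80.8 and 128 TPM in the moderate ones. Low replicate 1 thus lay within the moderate range for SAUR62, and the other low libraries below it. The log2 fold change was -0.92 (SE 0.24, limma adjusted p = 0.073) with all libraries and -1.12 (SE 0.21, adjusted p = 0.0072) without low replicate 1. High replicate 1 enters this comparison only through the shared estimate of the spread and the set of tested genes. Leaving it out gave 1 lower member, SAUR16 (adjusted p = 0.038), beside 0.168% of all tested genes. With all libraries the log2 fold changes of SAUR71 and SAUR41 were 0.83 and 0.75 (adjusted p of 0.098 and 0.118).

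High against low humidity compares both ends of the range. Of the 43 members 7 were higher and 6 lower at high humidity. Of all tested genes 23.7% were called, 12.4% as higher and 11.3% as lower. SAUR78, SAUR49, SAUR72, SAUR1, SAUR71, SAUR62 and SAUR50 were higher, and SAUR34, SAUR51, SAUR33, SAUR32, SAUR53 and SAUR6 lower. Here too the minimum favoured SAUR1, which passed it only through the high libraries. SAUR78 had the largest log2 fold change among the higher ones, 2.14 (SE 0.11, limma adjusted p = 1.2e-08), and SAUR34 among the lower ones, -2.92 (SE 0.33, adjusted p = 3.8e-05). All 13 calls held after scaling, which added SAUR64 and gave 8 higher and 6 lower members, beside 15.1% and 11.4% of all tested genes. Without low replicate 1, 9 members were higher and 7 lower, beside 15.0% and 9.75% of all tested genes. The median log2 fold change was 0.02 over the members and -0.06 over all genes.

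This comparison and that of high against moderate humidity share the 4 high libraries. As deposited, SAUR62 and SAUR50 were called against low but not against moderate humidity, with log2 fold changes of 0.84 (SE 0.24, limma adjusted p = 0.022) and 0.62 (SE 0.13, adjusted p = 2.7e-03), beside -0.08 and 0.16 against moderate humidity. After scaling SAUR50 was called in both. SAUR50 was at 25.2 to 37.8 TPM in the low, 39.3 to 45.0 TPM in the moderate and 39.9 to 56.1 TPM in the high libraries, so that the low libraries lay below all others. At low against moderate humidity SAUR50 did not pass (limma adjusted p = 0.077, and 0.282 after scaling). The call of SAUR62 was lost without low replicate 2 (0.063), low replicate 4 (0.059) or high replicate 3 (0.061). That of SAUR71 (log2 fold change 0.95, SE 0.27, adjusted p = 0.023) was lost without low replicate 1 (0.059), low replicate 3 (0.057), high replicate 2 (0.060) or high replicate 4 (0.058). SAUR53 had 3.89 ± 0.762 TPM at low, 3.21 ± 0.380 TPM at moderate and 1.77 ± 0.375 TPM at high humidity, with the high libraries below all others.

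Genes around the SAUR proteins were examined in 7 lists. At high against moderate humidity 11 of the 47 tested genes of these lists rose and 17 fell as deposited, beside 11.4% and 34.2% of all tested genes. After scaling 17 rose and 11 fell, beside 18.5% and 15.0%. Without high replicate 1 the risen ones numbered 7, beside 9.29% of all tested genes, with PP2C.D3, AFB1, AFB2 and PIF5 no longer called (adjusted p 0.062 to 0.130). Of the 9 PP2C.D phosphatases, a group that holds targets of SAUR proteins, 3 rose as deposited and 7 after scaling, and none fell. The shares of all tested genes beside these are the same 11.4% and 18.5%. PP2C.D8 (AT4G33920) was at 13.7 ± 0.655 TPM at moderate and 43.2 ± 5.38 TPM at high humidity and rose by 1.58 on the log2 scale (SE 0.11, limma adjusted p = 3.3e-07), PP2C.D5 rose by 0.56 and PP2C.D3 by 0.36. PP2C.D1, the phosphatase that SAUR49 is known to inhibit, had 4.92 ± 2.04 and 4.62 ± 0.453 TPM and did not pass (adjusted p = 0.983). Of 11 plasma membrane proton pumps 7 were tested, and AHA1, AHA2, AHA3 and AHA5 fell as deposited. The calls of AHA2 and AHA5 were lost without several single libraries (adjusted p up to 0.085 and 0.113). After scaling only the fall of AHA1 held (249 ± 22.0 to 168 ± 3.3 TPM, log2 fold change -0.56 as deposited and -0.32 after scaling), and AHA11 was higher.

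Auxin signalling genes moved in both directions. Of 6 auxin receptor genes AFB1 and AFB2 rose under both scalings, AFB3 (log2 fold change -0.81) and AFB5 (-0.63) fell under both, and TIR1 (-0.31) fell only as deposited. The calls of AFB1 and AFB2 were near the threshold (adjusted p of 0.032 and 0.049) and were each lost without moderate replicate 1 or 4 and without high replicate 1 or 2, among other fits (up to 0.077 and 0.130). Of 5 activating auxin response factors ARF7 rose and ARF5 and ARF8 fell under both scalings, while ARF19 fell as deposited alone and ARF6 was higher after scaling alone. Of the 13 listed genes of auxin synthesis 4 were tested. The aminotransferase genes TAA1 (-0.75) and TAR2 (-0.79) fell under both scalings, and YUC2 and YUC6 did not pass. Among the untested ones, means at moderate and high humidity were 0.397 and 1.04 TPM for YUC8 and 0.107 and 1.23 TPM for YUC5. YUC4 went the other way, with 0.168 and 0.035 TPM. Only YUC8 did not overlap between these conditions, and YUC5 reached 3.44 TPM in high replicate 1. The remaining untested genes of this list did not exceed 0.14 TPM.

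Of 11 other early auxin genes 9 were tested, and 2 rose and 3 fell under both scalings. IAA19, which encodes an auxin response repressor, had 4.08 ± 0.822 and 9.80 ± 1.03 TPM and rose by 1.10 (limma adjusted p = 8.9e-05), and GH3.5, whose product conjugates auxin, rose by 0.54. The call of GH3.5 was lost without moderate replicate 1 (0.084), high replicate 2 (0.078) or high replicate 3 (0.065) and with a pseudocount of 0.1 (0.053). IAA1 went from 51.7 ± 7.89 to 19.2 ± 2.16 TPM (-1.38, adjusted p = 2.2e-05), and IAA5 (-1.58) and IAA29 (-0.84) fell too. Among 7 growth transcription factors PIF7 (0.80), BZR1 (0.45) and PIF5 (0.30) rose and PIF3 (-0.82) fell under both scalings, while BES1 (-0.40) fell only as deposited. The call of PIF5 was lost without moderate replicate 1 (0.077), high replicate 1 (0.093) or high replicate 3 (0.066), and that of PP2C.D3 also without moderate replicate 3 (0.053). At low against moderate humidity BES1 was the only listed gene of these 7 lists called (-0.34, adjusted p just under the threshold of 0.05), and it was not called after scaling. Without low replicate 1, 13 of the 47 listed genes were lower and 0 higher, beside 30.3% and 2.27% of all tested genes, and the lower ones included AHA3, AFB3, AFB5, ARF8, IAA1 and GH3.5.

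**Figure D5:**
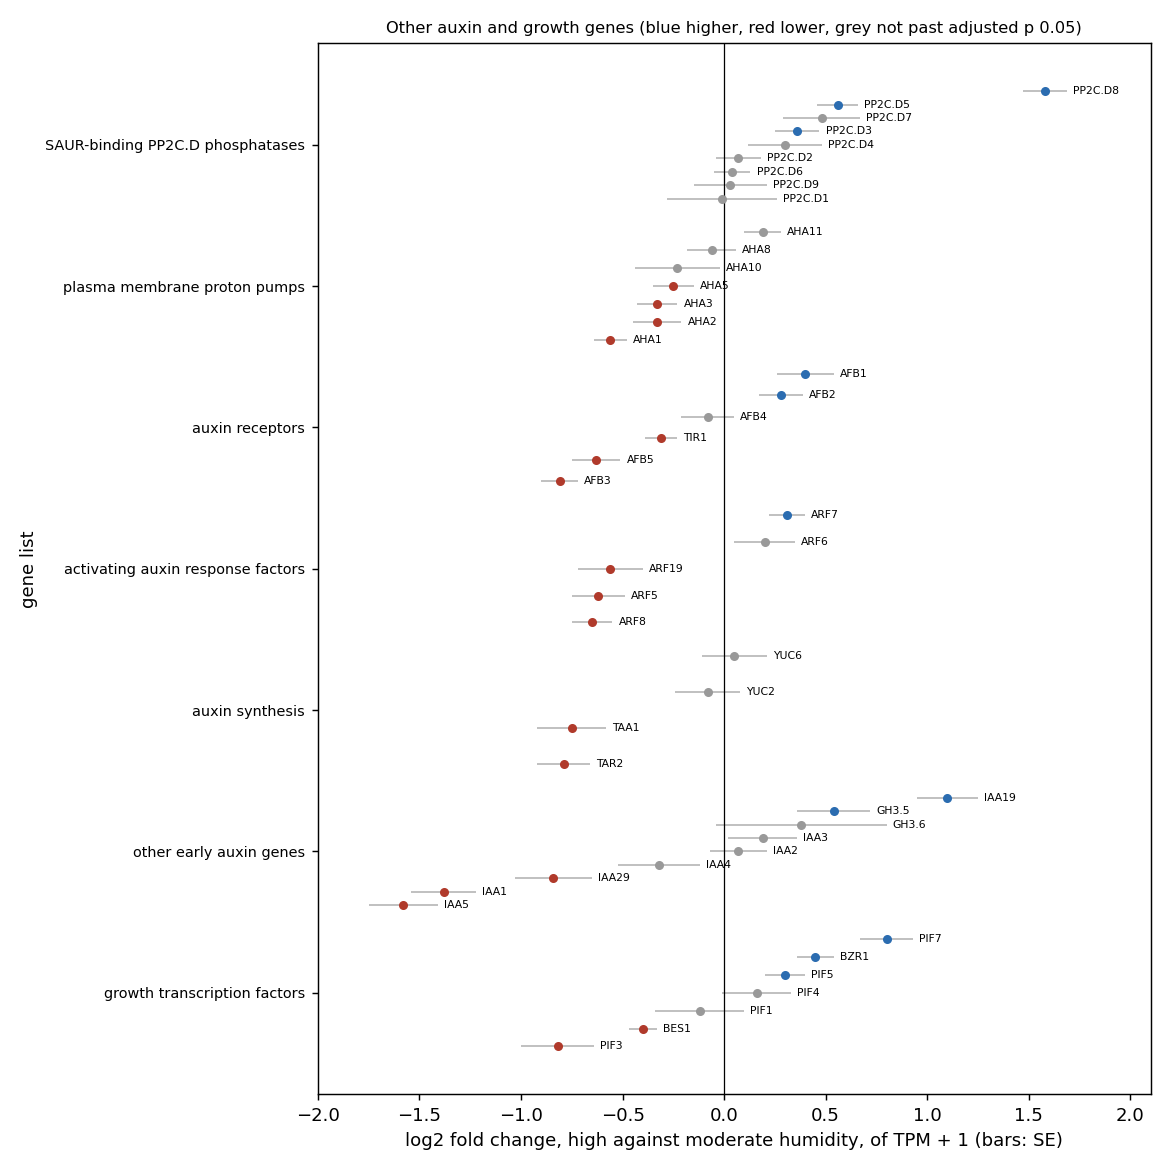
Log2 fold changes of TPM + 1 at high against moderate humidity with their SE, as deposited, for the tested genes of 7 lists of genes around the SAUR proteins (blue rose, red fell, grey did not pass). PP2C.D8 (1.58) and IAA19 (1.10) rose most and IAA5 (-1.58) and IAA1 (-1.38) fell most, and the falls of AHA2, AHA3, AHA5, TIR1, ARF19 and BES1 were not called after scaling.

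Markers of the leaf and of other organs were read in the same libraries. The 3 mesophyll markers (RBCS1A, CAB3 and CA1) summed to 32000 to 33500 TPM in the moderate, 32100 to 36900 TPM in the high and 31300 to 39100 TPM in the low libraries, and CAB3 alone was called higher at high and at low than at moderate humidity. The 4 epidermis and guard cell markers summed to 262 to 316 TPM in the moderate, 205 to 240 TPM in the high and 208 to 294 TPM in the low libraries. Of these FAMA, a factor of the guard cell lineage, fell at high humidity (-0.99, limma adjusted p = 2.6e-04), FDH fell as deposited only, and MYB60 and ATML1 did not pass. The phloem marker SUC2 rose from 125 ± 9.87 to 164 ± 11.9 TPM, while the meristem markers STM and KNAT1 did not exceed 0.07 TPM. The 5 root and flower markers summed to 0.42 to 1.56 TPM in the high and 2.33 to 3.63 TPM in the moderate libraries. AG alone of them was tested, and fell, and CASP1 was listed at 0 in every library. The part of these shifts in the SAUR results was not tested, and in whole leaves fewer cells of a type and less RNA per cell cannot be told apart.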

How the data were processed

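RNA was sequenced from 12 leaf samples, 4 per humidity condition, as paired 150-base reads of Illumina TruSeq libraries, per the labels' protocols. The submitters' processing notes name fastp, HISAT2, RSEM and the TAIR10 build; which step each did and with what version is not given in the sources used here. Per gene, the authors deposited TPM under a title that speaks of counts; the column sums show TPM. Since TPM holds no counts, no counting interval was possible. Their 3 columns of condition means were left out.

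From the deposited TPM, the 17368 genes that reached 1 TPM in 4 or more libraries entered, as log2(TPM + 1), a fit by limma 3.58.1 (R 4.3.3), with trend and robust moderation over all 12 libraries (9 residual degrees of freedom). P-values were adjusted after Benjamini and Hochberg over these genes. All fold changes are of log2(TPM + 1). Alternatives were a pseudocount of 0.1, no minimum, a minimum of 5 TPM, median-of-ratios scaling, the replicate number as a block, moderation without the robust option, a fit of the compared conditions alone, and leaving out each library.

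Members and gene lists were chosen with earlier results of these data known. Named in each comparison are up to 12 called members each way with the largest changes, the 6 of highest level, tandem groups with a called member, and up to 4 genes of each list by adjusted p. SAUR3, SAUR10, SAUR35, SAUR36, SAUR40, SAUR56, SAUR59, SAUR75, SAUR76, SAUR77, AT5G01830, AFB2, ARF6, AHA11, PP2C.D1, PIF5, YUC4, YUC5 and YUC8 were named outside this rule, with their values known.

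Names came from the table or, by locus code, from RefSeq for TAIR10.1, in which all 79 members were found. Gene structure, upstream windows and coding identity (global alignment, Biopython 1.88) were read from TAIR10.1. Protein identity had been planned; coding sequence was used in its place.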

Additional observations from a re-analysis of the deposited data

Results flagged for a closer look

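Among 111 sets of 4 libraries of the named SAUR genes, 7 held a library whose gap to the nearest other, as a share of the set's range on the log2(TPM + 1) scale, exceeded Dixon's 95% critical value. Chance alone gives about 1 in 20 such sets.

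SAUR34 had 0.53 TPM in high replicate 1 against 0 to 0.06 TPM in the other high libraries (share 0.863). SAUR6 in low replicate 1 had 114 TPM against 81.5 to 85.3 TPM (0.864), and SAUR31 in the same library had 83.2 TPM against 65.0 to 67.1 TPM (0.873). SAUR27 had 12.3 TPM in moderate replicate 4 against 5.35 to 6.12 TPM (0.845). In the high libraries SAUR62 had 85.0 TPM in replicate 3 against 73.6 to 75.1 TPM (0.858), SAUR28 had 0.69 TPM in replicate 2 against 1.64 to 1.74 TPM (0.923), and SAUR20 had 18.9 TPM in replicate 1 against 24.5 to 25.6 TPM (0.856).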

How the results depend on the processing

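With a minimum of 5 TPM, which leaves out genes of low level, 16 SAUR members were called at high against moderate humidity, 3 of them higher, and 1 (SAUR78, adjusted p = 0.044) was lower at low against moderate. Scaling left 11 lower members at high against moderate. For the 7 other lists it gave 17 higher and 11 lower genes, and without high replicate 1 there were 7 higher. At low against moderate humidity the called members ranged from 0 to 17 over the fits without 1 library each, with 0 to 1 higher and 0 to 16 lower. The lists' 1 call there became 0 with no minimum, scaling, the replicate block or the compared conditions alone, and 0 to 13 without single libraries (13 without low replicate 1). Causes were not tested.

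Fold changes that changed sign, none of them called, were at high against moderate humidity after scaling SAUR62 (0.16), SAUR63 (0.04), SAUR64 (0.18), SAUR66 (0.01) and SAUR31 (0.07). Without moderate replicate 4 they were SAUR62 (0.14), SAUR63 (0.04), SAUR64 (0.08) and SAUR24 (0.0), and SAUR64 also without high replicate 1 (0.01) or 4 (0.12). The lowest values of SAUR62, SAUR63, SAUR64 and SAUR24 without single libraries were -0.21, -0.35, -0.17 and -0.35. At high against low humidity they were SAUR65 without low replicate 1 (0.03) or high replicate 1 (0.01; lowest -0.19), SAUR68 without low replicate 2 (-0.1) or high replicate 2 (-0.04; highest 0.18), and SAUR7 without high replicate 4 (0.0; lowest -0.2).

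Deviations of same-numbered samples correlated at -0.3195 to 0.241. At high against moderate humidity the own number matched best for replicates 1 (0.241) and 3 (0.2254). At high against low humidity it did so for replicate 3 (0.1509), and in no other case. With so few samples per condition, these correlations cannot decide if the numbers pair the samples. With the replicate block the falls of SAUR16 (adjusted p = 0.051) and SAUR68 (0.058) at high against moderate lost their call, 7 members were higher and 17 lower at high against moderate, none was called at low against moderate, and 7 were higher and 7 lower at high against low humidity.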
